A study of Mus musculus with 28 samples.

Results

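The genes described here are 10 members of the canonical Wnt pathway, *Wnt3*, *Lrp6*, *Ctnnb1*, *Tcf7*, *Lef1*, *Tcf7l1*, *Tcf7l2*, *Axin2*, *Nkd1*, and *Sp5*. They were chosen by name for their place in the pathway, with earlier results of these data known. All 10 are among the 27179 genes of the chromatin RNA table, and 7 of them are among the 15384 genes with a value in each RNA-seq library. *Wnt3*, *Lef1*, and *Sp5* had no row in that table of values, so their response to knock-down was not analysed here. In this pathway a secreted Wnt ligand such as WNT3 binds a Frizzled receptor and the co-receptor LRP6, and this stops the destruction complex, built on AXIN scaffolds, from degrading β-catenin, the product of *Ctnnb1*. β-catenin then enters the nucleus and joins the DNA-binding TCF/LEF proteins (TCF7, LEF1, TCF7L1, and TCF7L2) at their targets, of which *Axin2*, *Nkd1*, and *Sp5* are widely used as readouts. In mouse ES cells, Wnt signalling is known to favour self-renewal, and TCF7L1 is known mainly as a repressor of pluripotency genes.

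The study asked what FACT, the histone chaperone formed by SSRP1 and SUPT16, does in mouse embryonic stem cells (mESCs) of the E14 line, grown here on gelatin in serum with 10 ng/ml LIF. Control cells received a scrambled shRNA and knock-down (KD) cells a combination of 2 vectors against *Ssrp1*. Both were selected with 2 µg/ml puromycin for 24 h from 48 h after transfection, and 4 libraries of each group with added spike-in RNA were used. Also used were 2 libraries of chromatin-associated RNA from E14 cells, SSRP1 and SUPT16 ChIP-seq peak lists, and the authors' mean over mESCs and early neural precursors (NPCs, 3 libraries, from embryoid bodies given 1 µM retinoic acid for 4 days and then kept without LIF for 3 days). The transfected cells are a selected population in bulk, so that fewer cells of a type and less RNA per cell cannot be told apart.

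In the KD libraries the knock-down was visible in every sample. The values of *Ssrp1*, scaled to library size by the authors, were 222.6 to 260.7 in control and 24.10 to 28.93 in KD, and *Supt16* was at 295.8 to 345.9 and 480.7 to 529.4. These are RNA values, and protein was not analysed here. By mass spectrometry, the paper reports that SUPT16 was depleted along with SSRP1. Reads recovered per library were 4602278 to 6680919 in control and 9433193 to 19856032 in KD, so an equal library-size value rests on more reads in KD. The genes that fell most, such as *Nkd1* and *Tcf7l2*, still had fewer reads in KD than in control. All 9 markers of undifferentiated ES cells had values, which summed to 1687 to 1779 in control and 4273 to 4639 in KD. Markers of other cells summed to less in KD for primitive streak and mesoderm (4 of 6 with a value, 21.9 to 29.8 against 11.9 to 15.1, with *T* and *Mixl1* having no row), primitive endoderm (6 of 6, 65.9 to 95.6 against 27.3 to 32.0), trophectoderm and epithelium (6 of 6, 993.3 to 1340 against 765.4 to 815.1), and fibroblasts (6 of 6, 87.1 to 105.7 against 17.4 to 20.8), and to more for the neural list (5 of 6, 83.7 to 107.4 against 144.5 to 155.5, with *Neurog2* having no row). The neural sum followed *Tubb3* (33.6 to 108.3), while the other 4 neural genes had negative log2 fold changes, 2 of them called lower, and the list median was −0.96. The part of such cells in the results below was not tested.

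DNA around the members is shown first, because the FACT peaks and the TCF/LEF motif described later are read from it. Sequences are from RefSeq GRCm38, the assembly that mm10 names, printed 5′ to 3′ in the direction of transcription of the gene, with CTTTGA or its reverse complement TCAAAG in capitals. The 250 bases before the *Ctnnb1* start site (chr9:120933150-120933399, + strand) are shown because peaks of both FACT subunits cover them. The 250 bases before the *Sp5* start (chr2:70474673-70474922, + strand) are shown because they hold CTTTGA at 2 places. The middle 300 bases of the SUPT16 peak in *Axin2* (chr11:108925451-108925750, + strand, intronic) and the whole SUPT16 peaks upstream of *Lef1* (chr3:131109511-131109720, + strand, outside *Lef1*) and far upstream of *Nkd1* (chr8:88454101-88454310, + strand, outside *Nkd1*) are the SUPT16 peaks that lie outside annotated exons of their own member. Overlap with other genes was not examined. For *Tcf7*, 30 bases around the only match in its SUPT16 peak are shown (chr11:52283357-52283386, − strand).
Ctnnb1 promoter: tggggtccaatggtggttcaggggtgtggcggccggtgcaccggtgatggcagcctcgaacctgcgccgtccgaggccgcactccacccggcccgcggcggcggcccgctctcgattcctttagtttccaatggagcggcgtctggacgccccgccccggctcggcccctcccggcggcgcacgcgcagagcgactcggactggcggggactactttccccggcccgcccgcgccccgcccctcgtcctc
Sp5 promoter: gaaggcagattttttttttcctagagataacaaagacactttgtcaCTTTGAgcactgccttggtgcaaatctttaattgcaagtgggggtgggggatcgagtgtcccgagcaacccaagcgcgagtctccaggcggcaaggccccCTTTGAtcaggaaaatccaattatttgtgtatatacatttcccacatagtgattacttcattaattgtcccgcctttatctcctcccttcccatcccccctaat
Axin2 intronic SUPT16 peak: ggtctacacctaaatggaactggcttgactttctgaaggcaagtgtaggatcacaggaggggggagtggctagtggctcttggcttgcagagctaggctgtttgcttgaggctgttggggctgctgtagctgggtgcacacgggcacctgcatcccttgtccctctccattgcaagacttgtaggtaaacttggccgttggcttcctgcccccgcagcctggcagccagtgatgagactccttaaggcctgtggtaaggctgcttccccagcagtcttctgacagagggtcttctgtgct
Lef1 upstream SUPT16 peak: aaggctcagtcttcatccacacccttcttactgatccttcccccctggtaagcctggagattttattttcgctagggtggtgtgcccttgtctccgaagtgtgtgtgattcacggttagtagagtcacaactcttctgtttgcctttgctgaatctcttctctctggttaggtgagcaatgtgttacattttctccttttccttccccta
Nkd1 upstream SUPT16 peak: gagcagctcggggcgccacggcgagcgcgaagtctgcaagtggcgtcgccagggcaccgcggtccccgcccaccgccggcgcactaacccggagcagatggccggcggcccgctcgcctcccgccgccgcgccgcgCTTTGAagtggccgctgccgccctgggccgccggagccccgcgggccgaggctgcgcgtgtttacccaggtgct
Tcf7 motif in SUPT16 peak: tgcccgcggtgcCTTTGAtgttccgacccg

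These stretches differ in base composition. The *Ctnnb1* promoter is 74.8% G or C with 35 CpG dinucleotides in 250 bases, whereas the *Sp5* promoter is 46.0% G or C with 6 CpGs. Over 32851 RefSeq promoters the medians were 52.4% and 6. The far upstream *Nkd1* peak is also CpG-rich, with 34 CpGs in 210 bases, while the *Axin2* and *Lef1* peak stretches hold 3 CpGs each.

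Levels in control mESCs were compared per kilobase of exon, since the members differ in length from 2238 bases for *Tcf7* to 9368 for *Lrp6*. *Ctnnb1* (chr9:120933400-120960507) was by far the highest, at 234.8 ± 19.7 library-size units per kb (SD, n = 4), and *Lrp6* (chr6:134446476-134566913) followed at 12.1 ± 0.774. *Tcf7* (chr11:52252604-52282571) was at 9.14 ± 0.576, and the ranges of these 3 genes did not overlap. The feedback inhibitors *Axin2* (chr11:108920349-108950783) and *Nkd1* (chr8:88521344-88594887) were next, at 3.989 ± 0.775 and 3.797 ± 0.892, with overlapping ranges. *Tcf7l1* (chr6:72626380-72788956, 2.86 ± 0.642) and *Tcf7l2* (chr19:55741810-55933655, 2.18 ± 0.438) were lowest and overlapped each other, and *Tcf7l1* also overlapped *Nkd1*. Thus the transducer was expressed at a much higher level than the DNA-binding factors and targets, and the order among the 4 lowest was not resolved by neighbours.

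The KD libraries gave another order at the low end. *Ctnnb1* was at 306.1 ± 2.58 units per kb, *Lrp6* at 9.30 ± 0.515, and *Tcf7* at 4.72 ± 0.843. *Tcf7l1* was next at 1.61 ± 0.115, above *Axin2* at 1.21 ± 0.143, and their ranges did not overlap. *Nkd1* (0.366 ± 0.0772) and *Tcf7l2* (0.352 ± 0.119) were lowest and overlapped.

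The response of each member to *Ssrp1* KD was tested with limma on log2(value + 0.5) over all 15384 genes, and calls required both a Benjamini-Hochberg adjusted p below 0.01 and a log2 fold change beyond 1 in size. Of the 7 members with values, *Nkd1*, *Tcf7l2*, and *Axin2* were called lower and 0 were called higher. Over all genes 20.6% were called lower and 8.07% higher. By adjusted p alone, 6 of the 7 were lower and 1, *Ctnnb1*, was higher, where the shares over all genes were 37.3% and 35.4%. In 6 members the 4 KD libraries all lay below the 4 control libraries, as in 37.5% of all genes, and in *Ctnnb1* they all lay above, as in 35.8% of all genes. The median log2 fold change of the 7 members was −0.93, and that of all genes −0.03.

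**Figure D1:**
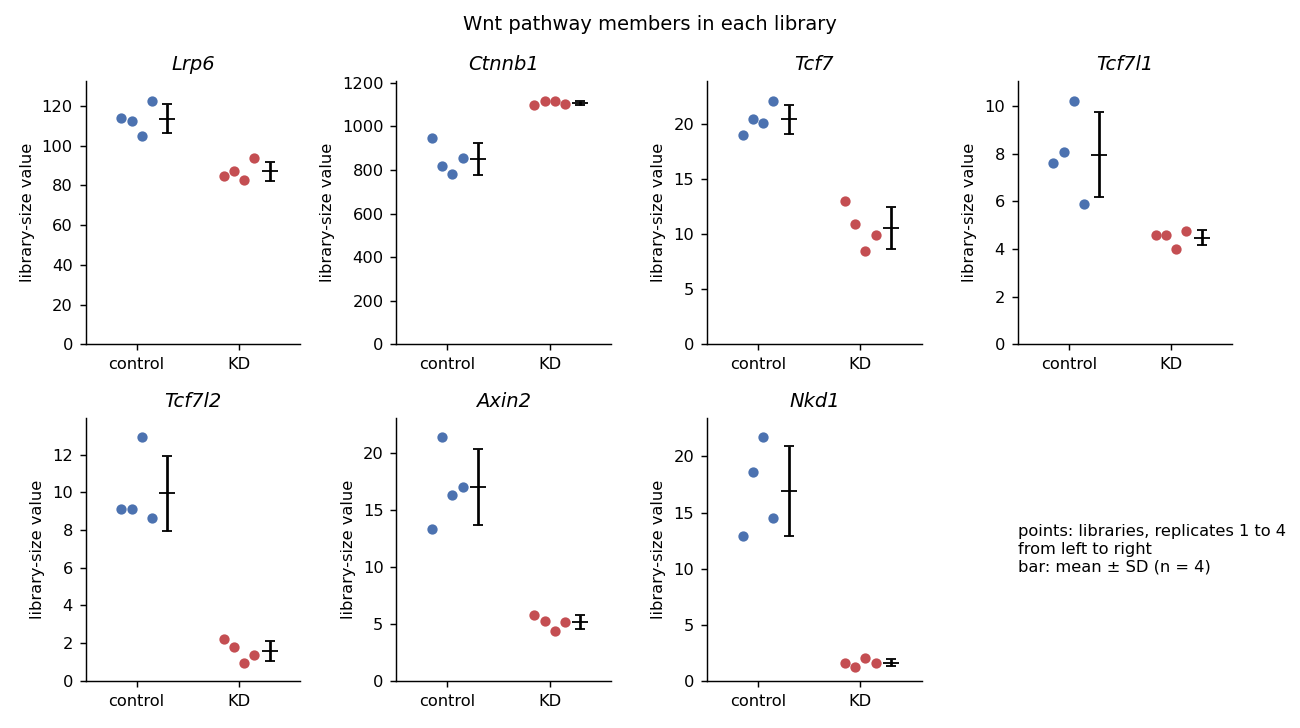
Library-size values (vertical axes, each from 0) of the 7 members in the 4 control and 4 KD libraries, with mean ± SD beside the points. The groups do not overlap in any panel, with KD below control for 6 genes and above it for *Ctnnb1*.

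*Nkd1*, which encodes a feedback inhibitor that binds Dishevelled, was the member with the largest fall. Its library-size values were 12.9, 18.6, 21.7, and 14.5 in the control libraries, in the order of their replicate numbers as in all such series below, and 1.61, 1.23, 2.07, and 1.62 in the KD libraries. The groups were far apart, with a ratio of means of 10.4. The log2 fold change was −3.02 (SE 0.19, limma adjusted p = 6.07e-14), which is understated for so low a gene by the added 0.5. Only 1.19% of all genes had a lower log2 fold change. The KD values rest on 13 to 32 reads per library and those of control on 95 to 121.

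*Axin2* encodes a scaffold of the destruction complex and is itself induced by the pathway. It was at 13.3, 21.3, 16.3, and 16.96 in the control libraries and at 5.81, 5.28, 4.34, and 5.16 in the KD libraries. Every KD library was below every control library, and the control libraries varied more than those of KD, with replicate 2 highest. *Axin2* fell by 1.62 on the log2 scale (SE 0.151, limma adjusted p = 1.76e-10), a ratio of means of 3.30, and 10.3% of genes had a lower log2 fold change.

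The 3 TCF factors with values all had lower KD than control values in library-size scaling, and only *Tcf7l2* passed both thresholds. *Tcf7l2* was at 9.12, 9.12, 12.9, and 8.62 in control and at 2.22, 1.82, 0.971, and 1.39 in KD. Control replicate 3 stood above the other control libraries, and the groups were apart with or without it. *Tcf7l2* fell by 2.33 on the log2 scale (SE 0.215, limma adjusted p = 1.4e-10), with a ratio of means of 6.21 and 15 to 31 reads per KD library. Without control replicate 3 the log2 fold change was −2.21.

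*Tcf7*, whose product mostly acts as an activator with β-catenin, was at 19.1, 20.5, 20.1, and 22.2 in control and at 12.98, 10.9, 8.48, and 9.91 in KD. KD replicate 1 was the highest of its group and still below all control libraries. The log2 fold change was −0.93 (SE 0.124, limma adjusted p = 1.24e-07), just inside the fold threshold, so *Tcf7* was not called. Without KD replicate 1 it was −1.03 and the gene was called lower.

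*Tcf7l1*, the TCF factor best known in mESCs, was at 7.62, 8.09, 10.2, and 5.88 in control and at 4.57, 4.57, 4.01, and 4.75 in KD. The KD libraries were close together and the control libraries spread. Its log2 fold change of −0.74 (SE 0.177, limma adjusted p = 0.000433) did not reach the fold threshold. It was the member with the weakest adjusted p.

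Expressed per kilobase, the 3 TCF transcripts also changed in their proportions. *Tcf7l2* made up 15.1, 14.3, 18.3, and 13.6% of the sum of the 3 in control and 6.16, 5.77, 3.92, and 4.74% in KD, and the groups did not overlap. *Tcf7l1* had 20.7, 20.7, 23.7, and 15.2% in control and 20.7, 23.8, 26.5, and 26.5% in KD, and *Tcf7* 64.6 ± 5.41% and 70.5 ± 1.89% (SD, n = 4), both with overlapping ranges. Their sum went from 14.2 ± 0.94 to 6.68 ± 1.03 units per kb. *Lef1* is not part of this sum, as it had no values per library.

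Upstream of the TCF factors, the differences were smaller. *Lrp6*, the co-receptor, was at 113.9, 112.7, 105.1, and 122.8 in control and at 84.8, 87.3, 82.6, and 93.8 in KD. The groups did not overlap, and the log2 fold change was −0.38 (SE 0.0624, limma adjusted p = 3.7e-06), below the fold threshold. *Ctnnb1* was at 948.4, 816.3, 783.6, and 853.8 in control and at 1100, 1119, 1115, and 1102 in KD. It was the only member with higher KD values, which lay within a narrow range, and its log2 fold change of 0.39 (SE 0.0633, limma adjusted p = 3.69e-06) was also below the fold threshold.

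The scaling set the direction of several of these values. In the authors' scaling to spike-ins the median of all genes moved to 0.95 on the log2 scale, with 7394 genes (48.1%) called higher and 1082 (7.03%) lower. On that scale the log2 fold change was 0.64 for *Lrp6*, 0.06 for *Tcf7*, and 0.21 for *Tcf7l1*, so that these 3 changed sign. *Axin2* was at −0.65 (limma adjusted p = 0.0376) and lost its call, *Ctnnb1* was at 1.41 and was called higher, and *Nkd1* (−2.11) and *Tcf7l2* (−1.45) were called lower as before. Relative to the median of all genes on that scale, the values of *Nkd1*, *Tcf7l2*, *Axin2*, *Tcf7*, *Tcf7l1*, and *Lrp6* were −3.06, −2.41, −1.60, −0.90, −0.75, and −0.31, and that of *Ctnnb1* was 0.46.

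Quantile normalisation and a correction for exon length moved other members. With quantiles 10.8% of all genes were called lower and 9.87% higher. *Ctnnb1* then changed sign to −0.50 and *Tcf7l1* to 0.18 (limma adjusted p = 0.367), while *Nkd1* (−2.34), *Tcf7l2* (−1.38), and *Axin2* (−1.11) were called lower. After the length correction *Lrp6*, the longest member, changed sign to 0.23, and the calls of *Nkd1*, *Tcf7l2*, and *Axin2* remained at −2.80, −2.11, and −1.42.

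**Figure D2:**
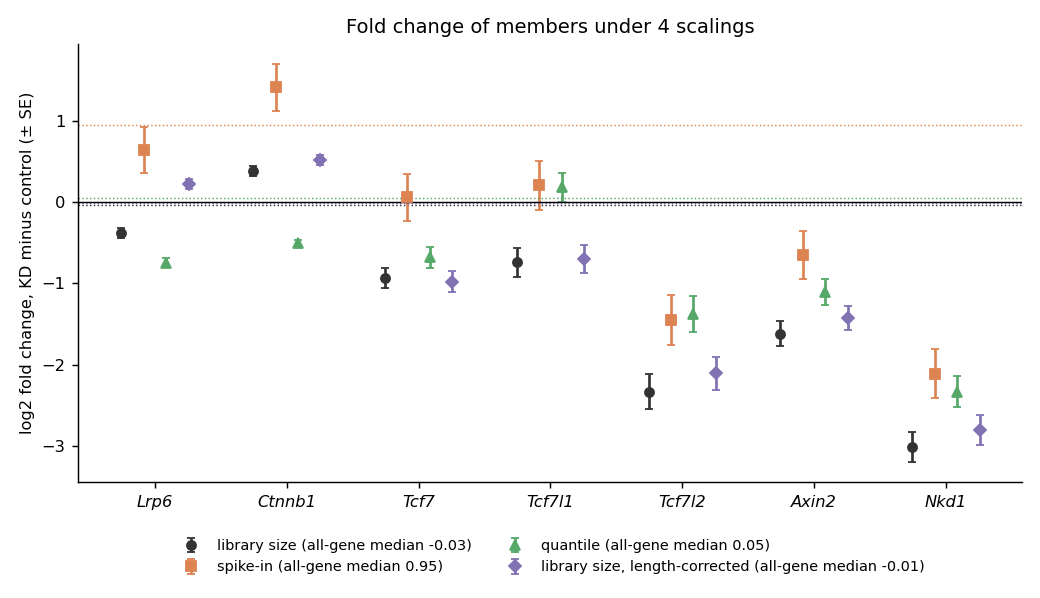
Log2 fold change of KD minus control (± SE, 4 libraries per group) for the 7 members under the authors' library-size and spike-in scalings, quantile normalisation, and a correction for exon length. Dotted lines mark the median of all genes on each scale, and *Tcf7l2*, *Axin2*, and *Nkd1* are below 0 and below that median on all 4.

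Level and length went along with the fold changes across the whole table. All genes were ranked by mean log2 value over all 8 libraries and divided into 4 classes of 3846. The KD values are part of this mean, so a fall itself moves a gene towards a lower class. *Nkd1* and *Axin2*, with control means of 16.93 and 16.99, stand in different classes. In the lowest class, which holds *Tcf7l1*, *Tcf7l2*, and *Nkd1*, the median log2 fold change was −1.10 and 54.3% were called lower. In the next class, with *Tcf7* and *Axin2*, these were −0.25 and 21.2%, and in the highest class, with *Lrp6* and *Ctnnb1*, they were 0.46 and 1.82%. Of 4 such classes by exon length, the longest, which holds *Lrp6*, *Tcf7l2*, *Axin2*, and *Nkd1*, had a median of −0.33 with 28.4% called lower. Among the members, *Nkd1*, *Tcf7l2*, *Axin2*, *Tcf7*, and *Lrp6* were below the medians of both of their classes. *Tcf7l1* (−0.74) lay above the median of its class by level, and *Ctnnb1* (0.39) above that of its class by length (−0.12). The called genes *Nkd1*, *Tcf7l2*, and *Axin2* were picked by their fold change, so their place below these medians was in part set beforehand. The part of level and length in the values of the members was not tested beyond the length correction above.

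The 3 genes whose values ran most like *Axin2* over the 8 libraries were *Proc* (Pearson r = 0.999), *Tchh* (0.997), and *Srrm3* (0.997). For *Tcf7l1* they were *Bnipl* (0.995), *Gnaz* (0.992), and *Lpcat4* (0.991). These r values describe libraries that fall into a control and a KD group, and 2137 genes had an r above 0.95 with *Axin2* against 167 with *Tcf7l1*.

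Other genes of the pathway were counted from 6 lists ordered by role, with 101 genes in all, of which 80 had values. Of these 80, 25 (31.25%) were called lower and 2 (2.5%) higher, with a median log2 fold change of −0.61. The shares over all genes were 20.6% lower and 8.07% higher, with a median of −0.03. Without the members it was 22 lower and 2 higher of 73, that is 30.1% and 2.74%, with a median of −0.46. On the spike-in scale the 80 genes split into 11 lower and 22 higher, where 7.03% and 48.1% of all genes were called, and with quantiles into 16 lower and 4 higher, where it was 10.8% and 9.87%. Without KD replicate 4, 1 gene in place of 2 was called higher. Of the 28 pathway genes in the lowest class by level, 60.7% were called lower, where the share over all genes of that class was 54.3%. As the KD values help to set these classes, their shares are not a background independent of the fold changes. Of the 21 in the next class it was 38.1% against 21.2%, and of the 17 and 14 in the upper classes 0 were called in either direction. Over all genes of those upper classes, 4.97% and 1.82% were called lower and 9.44% and 15.3% higher.

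Of the 6 lists, that of ligands and secretion factors had the largest share of falls. Of 13 genes with values, 8 (61.5%) were called lower and 0 higher, with a median log2 fold change of −1.55, where 20.6% of all genes and 54.3% of the lowest class by level were called lower. That class held 6 of the 13, of which 4 were called lower. *Wnt9a* fell from 24.8 ± 2.15 to 2.59 ± 0.233 (SD, n = 4; log2 fold change −3.03) and *Wnt4* from 22.3 ± 2.63 to 2.58 ± 0.725 (−2.91). *Wnt7a* (−2.72) and *Wnt2b* (−2.26) were also called lower, all with limma adjusted p-values from 1.64e-16 to 2.63e-10. *Wnt3* itself was not among the genes with values per library.

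Among receptors, co-receptors, and the R-spondin axis, 5 of 17 (29.4%) were called lower and 0 higher, with a median of −0.39, and all 5 were among its 7 genes of the lowest class. *Fzd1*, a Frizzled receptor, fell from 8.62 ± 1.22 to 0.994 ± 0.294 (log2 fold change −2.62). *Rnf43*, a ubiquitin ligase that removes Frizzled receptors and is itself a target, fell by 2.41 on the log2 scale, followed by the R-spondin *Rspo1* (−1.96) and the R-spondin receptor *Lgr6* (−1.84). Of the 11 antagonists with values, 3 (27.3%) were called lower and 2 (18.2%) higher, with a median of −0.89. For both lists the shares over all genes were 20.6% lower and 8.07% higher. *Kremen2* (−1.89), a receptor for Dickkopf proteins, and the secreted inhibitors *Dkk1* (−1.79) and *Wif1* (−1.11) were called lower, and the groups of *Wif1* overlapped. *Sfrp4*, a secreted Frizzled-related protein, rose from 3.87 ± 0.941 to 11.3 ± 0.99 (1.45), the largest rise on the lists. The other rise, that of the membrane inhibitor *Apcdd1* (1.04), falls outside the naming rule and is given after its value was seen.

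In the cytoplasmic list 4 of 19 (21.1%) were called lower and 0 higher, close to the 20.6% called lower among all genes, and the median was 0.01. Besides *Nkd1* and *Axin2* these were *Apc2* (−1.71), a relative of the destruction complex scaffold APC, and the Dishevelled gene *Dvl3* (−1.26). Of 13 nuclear effectors and co-factors, 3 (23.1%) were called lower and 0 higher, with a median of −0.74. Besides *Tcf7l2* they were the corepressor *Tle2* (−2.19) and *Bcl9l* (−1.74), which links β-catenin to Pygopus. Of 16 transcriptional targets, 6 (37.5%) were called lower and 1 (6.25%) higher, with a median of −0.91. Over all genes these shares were 20.6% and 8.07%. The lowest class by level, where 54.3% of all genes were called lower, held 7 of the 16 targets and 5 of the 6 called lower. After *Nkd1*, the largest changes were those of *Cd44* (−2.61), *Rnf43* (−2.41), and *Dkk1* (−1.79), and the only call in the other direction was *Apcdd1*. Some genes stand on more than 1 list.

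**Figure D3:**
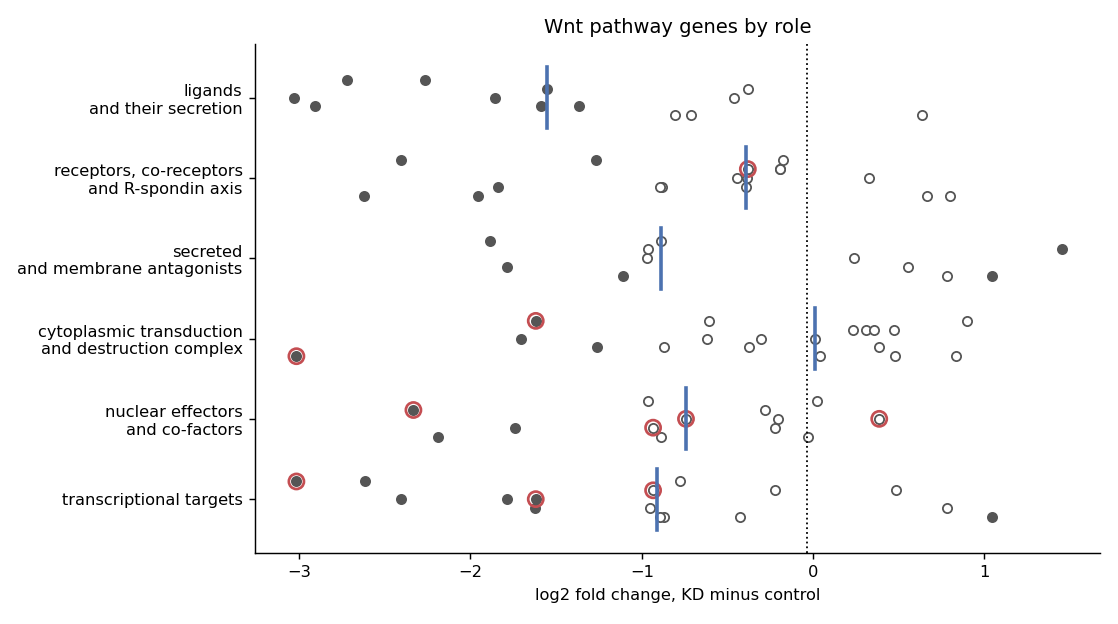
Log2 fold change of KD minus control (horizontal axis) for each gene with values on the 6 role lists, with called genes filled, genes not called open, members ringed in red, and list medians as blue bars. The dotted line is the median of all genes (−0.03), and the ligand list has the lowest median (−1.55).

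The peak lists assigned a peak of either FACT subunit to 5 of the 10 members. By the authors' assignment to the nearest gene, an SSRP1 peak was listed for *Ctnnb1* and *Nkd1* and a SUPT16 peak for *Ctnnb1*, *Tcf7*, *Lef1*, *Axin2*, and *Nkd1*. Among the 7 members with values these are 2 with SSRP1 and 4 with SUPT16, and over all 15384 genes 36% had an SSRP1 peak and 18.6% a SUPT16 peak. *Wnt3*, *Lrp6*, *Tcf7l1*, *Tcf7l2*, and *Sp5* were in neither list. The replicates of a subunit were given to peak calling together, and the lists hold no values per replicate and no peak heights, so occupancy cannot be ranked.

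*Ctnnb1* was the only member with peaks of both subunits at 1 place. Its SSRP1 peak (chr9:120932883-120934450, 1568 bp) covered the start site and the first exon, and its SUPT16 peak (chr9:120932911-120933750, 840 bp) lay wholly inside it, with all 840 bp shared. The *Ctnnb1* promoter shown above overlaps both. The SUPT16 peak of *Tcf7* (chr11:52283141-52283420, 280 bp) ended 127 bp upstream of the nearest curated start site and covered the start of predicted transcripts. That of *Lef1* (210 bp) lay 577 bp upstream of its first curated start and outside the gene.

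The other peaks were at a distance from start sites or beside them. The SUPT16 peak of *Axin2* (chr11:108925321-108925880, 560 bp) lay in an intron, 4972 bp downstream of the curated start, and overlapped no annotated exon of *Axin2*. *Nkd1* had a SUPT16 peak (chr8:88521371-88521720, 350 bp) that began 27 bp downstream of its start and overlapped exons, and another 67034 bp upstream of it. The SSRP1 peak listed under *Nkd1* (chr8:88609053-88609738, 686 bp) was 14166 bp beyond the end of the gene, and with a rule of overlap with the gene or 1000 bp around its start *Ctnnb1* was the only member with an SSRP1 peak.

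**Figure D4:**
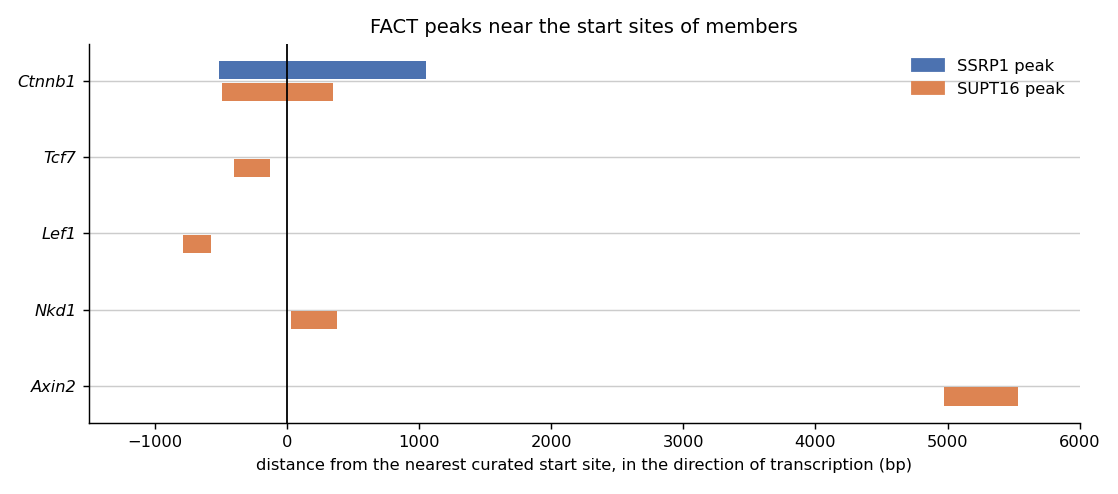
SSRP1 and SUPT16 peaks as bars along the distance from the nearest curated start site (bp, negative upstream) for the 5 members with peaks. The 2 peaks listed for *Nkd1* more than 10000 bp away are not drawn, and *Ctnnb1* is the only row with bars of both subunits.

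The letters CTTTGA, a form of the core of the TCF/LEF motif, were searched on both strands in RefSeq promoter windows of 300 bases. Other forms of the core, such as CTTTGT, were not searched, so a window without CTTTGA may still hold the motif. The windows run from 250 bases before to 50 bases after a start. Such windows were at hand for 15 curated starts of 9 members. *Lrp6* and the first start of *Nkd1*, the one beside its SUPT16 peak, had no window and were not searched. A match was present in the single window of *Sp5*, at 204 and 104 bases before the start, and in 1 of the 4 windows of *Lef1*, while 16% of 32851 promoter windows held 1 or more. The longer CTTTGAT, which contains the first motif, occurred in the *Sp5* window and in 3.73% of all windows. The windows of *Axin2*, *Ctnnb1*, *Tcf7*, *Tcf7l1*, *Tcf7l2*, and *Wnt3*, and that of the later start of *Nkd1*, did not contain these letters.

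Among the member peaks, CTTTGA occurred once in the SUPT16 peak of *Tcf7* and once in the far upstream SUPT16 peak of *Nkd1*, both printed above. The *Tcf7* match (chr11:52283369-52283374) lies 355 bases upstream of the nearest curated start, 9 bases inside predicted transcripts, and is part of the longer CTTTGAT. The peaks of *Ctnnb1*, *Lef1*, and *Axin2* did not contain the letters. In windows of 300 bases around the centre of all peaks, 11.5% of 3855 SUPT16 and 13.4% of 10114 SSRP1 peaks held CTTTGA.

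All 10 members could be looked up in the chromatin RNA of E14 cells, where exon counts were few. Only 5.56% and 9.35% of the 3441643 and 3393923 counts of replicates 1 and 2 lay on protein-coding genes, whose median count was 2 and 3. *Ctnnb1* had 100 and 180 counts and *Lrp6* 56 and 100. As counts per kb of exon scaled to the total on protein-coding genes (CPM per kb), these were 144.3 (exact 95% Poisson interval 117.4 to 175.5) and 156.5 (134.5 to 181.1) for *Ctnnb1* and 31.3 (23.6 to 40.6) and 33.6 (27.4 to 40.9) for *Lrp6*. In counts not divided by length, 99.2% of protein-coding genes had fewer than *Ctnnb1* and 97.7% fewer than *Lrp6*. The intervals cover counting error only.

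The ligand and the targets were near the limit of this depth. *Wnt3* (chr11:103774175-103818021) had 10 and 6 counts, or 16.8 (8.05 to 30.9) and 6.07 (2.23 to 13.2) CPM per kb, and *Sp5* (chr2:70474923-70477726) had 7 and 3, or 17.5 (7.02 to 36.0) and 4.51 (0.929 to 13.2). *Axin2* had 4 and 8 counts and *Nkd1* 8 and 13. *Tcf7l1* had 6 and 9, *Tcf7l2* 3 and 7, and *Tcf7* 3 and 5. *Lef1* (chr3:131110471-131223334) had 0 and 3 counts, and the exact interval of the 0 in replicate 1 reached 3.69 counts, or 7.84 CPM per kb. Among these 8 genes the intervals of *Wnt3* and *Lef1* in replicate 1 were the only 1 of 28 pairs that did not overlap, and in replicate 2 all 28 pairs overlapped, so an order among them was not detectable in both libraries. In replicate 2 all 8 intervals lay below that of *Lrp6*.

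**Figure D5:**
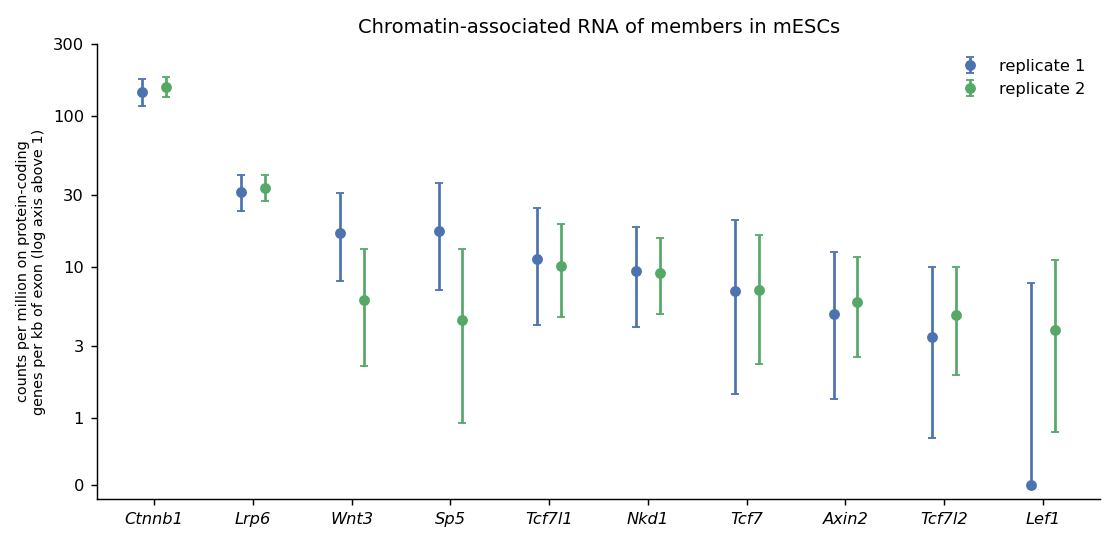
Chromatin-associated RNA of the 10 members in the 2 E14 libraries, as CPM of the counts on protein-coding genes per kb of exon (log axis above 1), with exact 95% Poisson intervals. *Ctnnb1* and *Lrp6* have the highest counts in both libraries, and the intervals of the other 8 genes overlap except those of *Wnt3* and *Lef1* in replicate 1.

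For *Wnt3* and *Lef1* a level in the knock-down set is given only by the authors' mean over libraries. It was 2.63 on the log2 CPM scale for *Wnt3*, higher than or equal to 23.8% of the 14340 genes of that table, and 0.42 for *Lef1*, at 2.39%. On the same scale *Ctnnb1* was at 10.1, *Lrp6* at 7.04, and *Axin2* at 3.43. In the table of NPCs with mESCs, the authors' mean was 4.18 for *Wnt3*, 1.91 for *Lef1*, 3.90 for *Tcf7l2*, 3.81 for *Tcf7l1*, and 4.49 for *Axin2*. These means pool both cell states and were normalised separately from the knock-down table, so no comparison between states or tables was made. *Sp5* was in neither table.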

How the data were processed

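RNA-seq of 4 control and 4 *Ssrp1* KD libraries with spike-ins, 2 libraries of E14 chromatin RNA, and SSRP1 and SUPT16 peak lists were used. The RNA-seq signal per gene was made by the authors from rRNA-depleted RNA with STAR, mm10, and featureCounts, and deposited scaled to library size and to spike-ins. Chromatin RNA was deposited as raw counts per gene (aligner not given in the sources used here). Average log2 CPM values were computed by the authors over all libraries of a table, and the fold changes and p-values beside them were not used. For the peak lists the authors used Bowtie2 (2.2.6 in the submitters' processing notes), PePr on the pooled replicates of a subunit, and ChIP-Enrich. As no source used here states whether counting used the strand, antisense partners of the members cannot be told apart from them. Other assays of the series were not analysed here.

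Symbols and exon lengths were matched by gene ID for 15384 of 15384 genes. Whole reads were recovered from the step between values, within 0.1 of a whole number. No 2 libraries of a group agreed within sampling noise (chi-square per degree of freedom 1.88 to 6.62). A limma 3.58.1 fit with trend over all 8 libraries was made on log2(value + 0.5), with Benjamini-Hochberg adjustment over 15384 genes. Alternatives were tests of the recovered reads with DESeq2 1.42.0 and edgeR 4.0.16, TMM, spike-in, and quantile scalings, pseudocounts of 0.1 and 2, a filter at a mean value of 5, no trend, a replicate block, a loess correction for exon length, leaving out each library, and other thresholds. When 200 of 15384 genes were changed 4-fold in simulated data, limma, edgeR, and DESeq2 recovered 100% with 0 false calls. The changed genes were drawn only from those with higher read counts, rose and fell in equal number, and shared 1 dispersion with all others. The simulation therefore does not cover genes with as few reads as *Nkd1* and *Tcf7l2* in KD, or a shift of many genes. Replicates are biological replicates in the study's methods.

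All 10 members are named, with *Ssrp1* and *Supt16* as a check, at most 4 called genes for each pathway list by size of change, and the 3 genes most like *Axin2* and *Tcf7l1*. The members and lists were chosen with earlier results of these data known. Peak starts were taken as 0-based and are printed 1-based. Promoters and genes are from RefSeq GRCm38. Computation was in R 4.3.3 and Python 3.11.15 (scipy 1.17.1, pandas 2.3.3, numpy 2.4.6, matplotlib 3.10.9).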

Additional observations from a re-analysis of the deposited data

Results flagged for a closer look

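The value of *Tcf7l2* in control replicate 3, 12.9 library-size units, stood apart from the other 3 control libraries, whose values were 8.62 to 9.12. The gap was 0.882 of the range of the group, above the 95% limit of Dixon's test for 4 samples. It was the only 1 of 20 groups of member values and TCF shares screened that stood apart in this way, and chance alone flags about 1 in 20. Control replicate 3, the library with the fewest reads, also had the highest control values of *Nkd1* and *Tcf7l1*.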

How the results depend on the processing

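Of 147 values of the 7 members under alternatives, 132 kept their direction and their side of the threshold. The alternatives are not independent of each other. Those with other thresholds reuse the main fit and could not change a direction, and those without a library share most of its values. The spike-in scaling turned *Lrp6* to 0.639, *Tcf7* to 0.057, and *Tcf7l1* to 0.207 on the log2 scale, quantile normalisation turned *Ctnnb1* to −0.502 and *Tcf7l1* to 0.183, and the length correction turned *Lrp6* to 0.227. The turned values of *Tcf7* and *Tcf7l1* had limma adjusted p-values of 0.367 to 0.865. *Nkd1* and *Tcf7l2* were called lower in all alternatives, and *Axin2* in all except the spike-in scaling. The count of members called lower was 6 by adjusted p alone and 5 at an adjusted p below 0.05 and 1.5-fold, and 1 member was called higher by adjusted p alone and by spike-ins. Pathway genes called lower were 11 with spike-ins, 16 with quantiles, 49 by adjusted p alone, and 41 at 1.5-fold, and those called higher 22, 4, 18, and 8 in that order, 1 with a pseudocount of 2, and 5 with the length correction. The causes were not tested.

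With each library left out, members called lower ranged from 3 to 4, members called higher from 0 to 0, pathway genes called lower from 25 to 27, and pathway genes called higher from 1 (without KD replicate 4) to 2. *Tcf7* was called without KD replicate 1. A replicate block changed no call and left 3 members called lower. No pairing of libraries by number was detected, with correlations of deviations between libraries of the same number of −0.057 to 0.047. Whether such libraries were prepared together cannot be told from these values. All genes called lower ranged from 1082 with spike-ins to 5745 by adjusted p alone, with 1656 by quantiles and 2024 at a mean value of at least 5, and those called higher were 7394, 5447, and, at 1.5-fold, 3271. Members with an SSRP1 peak were 1 by overlap or 1000 bp around the start, and members with a SUPT16 peak were 2 for peaks of at least 500 bp. Without length division *Tcf7l2* ranked above *Tcf7l1* in control. Low counts limit the chromatin RNA of 8 members.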
